A study of Mus musculus with 8 samples.

Results

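Long noncoding RNAs of the nucleus and of snoRNA host genes were examined in regulatory T cells (Treg) sorted from bone marrow (BM-Treg) and from spleen (SP-Treg). The 8 genes considered were Malat1, Neat1, Gas5, Snhg1, Snhg3, Snhg5, Snhg8 and Snhg12, out of 38215 genes listed. Of these, 5 were found by their gene name. Snhg5 was found through its Ensembl identifier in the row named CT025673.1, and Snhg1 through its position and strand in the row named AC025794.1, so that 7 genes were followed. Snhg8 is not analysed here. FoxP3+ cells were sorted by flow cytometry from naïve C57Bl/6 mice aged 12 weeks that carried a FoxP3-GFP reporter, and RNAseq was performed on 4 libraries per tissue. The GFP reporter defined the sorted cells in both tissues, and no animal received a treatment. According to the labels, BM-Treg replicates 1 to 3 came from batch 1 and female mice, while batch 3 and male mice gave BM-Treg replicate 4 and every SP-Treg library.

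Malat1 is a very abundant nuclear RNA that gathers at nuclear speckles, the bodies that hold splicing factors. Neat1 is transcribed next to it and is the RNA scaffold of paraspeckles, which only the long Neat1 transcript can build. Gas5 and the Snhg genes are spliced noncoding hosts: their introns carry small nucleolar RNAs (snoRNAs), which guide the chemical modification of ribosomal RNA, while the spliced host RNA is exported and is a known target of nonsense-mediated decay.

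Total expected counts, the estimated reads per gene summed over all genes, were 17544552, 20507445, 21921252 and 12427136 in BM-Treg replicates 1 to 4, and 12938469, 13278601, 12924964 and 14121975 in SP-Treg replicates 1 to 4. Mitochondrial ribosomal RNA took 22.7% to 26.3% of the counts in BM-Treg and 17.7% to 30.1% in SP-Treg. The lowest share, 17.7%, was that of SP-Treg replicate 1. Xist, the noncoding RNA that coats the inactive X chromosome of female cells, was read at 1232, 2270 and 2275 CPM (counts scaled to library size) in BM-Treg replicates 1 to 3. It was at 2.59 CPM in BM-Treg replicate 4 and at 1.51, 2.63, 2.34 and 2.06 CPM in SP-Treg replicates 1 to 4. The libraries thus split by Xist as their sex labels do. Tissue, batch and sex cannot be told apart for BM-Treg replicates 1 to 3.

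Malat1 was higher in BM-Treg, and it was the 1 gene of the 7 with a difference past the threshold. A gene was called differentially expressed (DEG) at an adjusted p below 0.05 by the quasi-likelihood test of edgeR, adjusted after Benjamini and Hochberg over all 13397 genes tested. All 7 noncoding RNAs passed the filter on low counts and were tested. Across all genes 1172 were called, or 8.75%, with 499 upregulated (3.72%) and 673 downregulated (5.02%) in BM-Treg. Malat1 was thus 1 of 7 against a background of 8.75%, and at 7 genes such a count is no result about the group. The median log2 fold change was 0.07 over the 7 genes and -0.01 over all genes tested. Batch 1 holds no SP-Treg library. A model with batch as a term therefore takes the tissue difference from BM-Treg replicate 4 alone against the 4 SP-Treg libraries, the same comparison as within batch 3 alone, with the spread of BM-Treg replicates 1 to 3 added. Wherever batch as a term or batch 3 alone is given below, the BM-Treg arm is thus 1 library, assumed to vary like the others, and a lost call may come from the smaller arm or from batch, which cannot be told apart. The batch term left 258 genes called and batch 3 alone 79. Without BM-Treg replicate 2 the number was 690. Malat1 was not called in any of them.

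Malat1 (ENSMUSG00000092341) lies on the minus strand at chr19:5795690-5802672 of GRCm38. Its level was 7866, 10264, 9131 and 12020 FPKM, a level scaled to transcript length and depth, in BM-Treg replicates 1 to 4, and 5221, 6549, 6129 and 7035 FPKM in SP-Treg replicates 1 to 4. All 4 BM-Treg libraries lay above all 4 SP-Treg libraries, in FPKM as in log2 CPM. In log2 CPM, 7.58% of the genes tested showed such a separation in this direction, 8.57% in the other and 16.2% in either. In CPM after TMM scaling the means were 17599 ± 2146 in BM-Treg and 12751 ± 1160 in SP-Treg (SD, n = 4). The gene took 1.52% to 1.95% of all expected counts in BM-Treg and 1.19% to 1.32% in SP-Treg, and on average was exceeded in counts by 2 genes, the mitochondrial ribosomal RNAs mt-Rnr2 and mt-Rnr1. The log2 fold change was 0.46 ± 0.13 (SE), or 1.38-fold, at an adjusted p of 0.0381 in edgeR. In bulk libraries a change in RNA per cell and a change in the share of cells that hold much of it cannot be told apart.

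The size of the Malat1 difference changed less than its call. Over the 20 alternative settings the log2 fold change ran from 0.41 to 0.65 and kept its sign, and the edgeR, DESeq2 or limma test called it in 11. BM-Treg replicate 4 against SP-Treg gave a log2 fold change of 0.64 (edgeR adjusted p = 0.178) in batch 3 alone and, as the same comparison, 0.62 (edgeR adjusted p = 0.128) with batch as a term. The replicate block gave 0.46 (edgeR adjusted p = 0.0865). In edgeR the adjusted p was 0.0667 without BM-Treg replicate 1, 0.101 without BM-Treg replicate 2, 0.101 without BM-Treg replicate 4, 0.0670 without SP-Treg replicate 1, 0.0977 without SP-Treg replicate 2 and 0.0620 without SP-Treg replicate 3. Of the 8 fits with 1 library less, 2 kept the call.

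Neat1 (ENSMUSG00000092274), on the same strand at chr19:5824708-5845478, begins beyond the Malat1 gene with 22035 bases between them. Its level was 52.2, 53.2, 37.9 and 45.8 FPKM in BM-Treg replicates 1 to 4, and 45.0, 37.3, 28.7 and 31.7 FPKM in SP-Treg replicates 1 to 4. The 2 tissues overlapped, since BM-Treg replicate 3 lay below SP-Treg replicate 1. The log2 fold change was 0.21 ± 0.15 (SE), with an adjusted p of 0.417 in edgeR, and 0.40 on the log2(FPKM + 1) scale (limma adjusted p = 0.166). Malat1 stood at 151 to 263 times the FPKM of Neat1 in BM-Treg libraries and at 116 to 222 times in SP-Treg libraries. The difference between the fold changes of the 2 neighbours was not tested.

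Frmd8, which codes for a protein of the iRhom complex and lies next to Neat1, was not called, with a log2 fold change of -0.08 ± 0.10 (SE; edgeR adjusted p = 0.684). Gm20417, an antisense gene of 988 bases that lies wholly inside Malat1, received 773 expected counts in BM-Treg replicate 1 and 1260 in SP-Treg replicate 3 and 0 in the other 6 libraries. It did not pass the filter on low counts. The counting is not stated to use strand, so reads of this gene and of Malat1 cannot be told apart. With its counts added to those of Malat1, the log2 fold change of Malat1 was 0.46 (edgeR adjusted p = 0.0394).

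**Figure D1:**
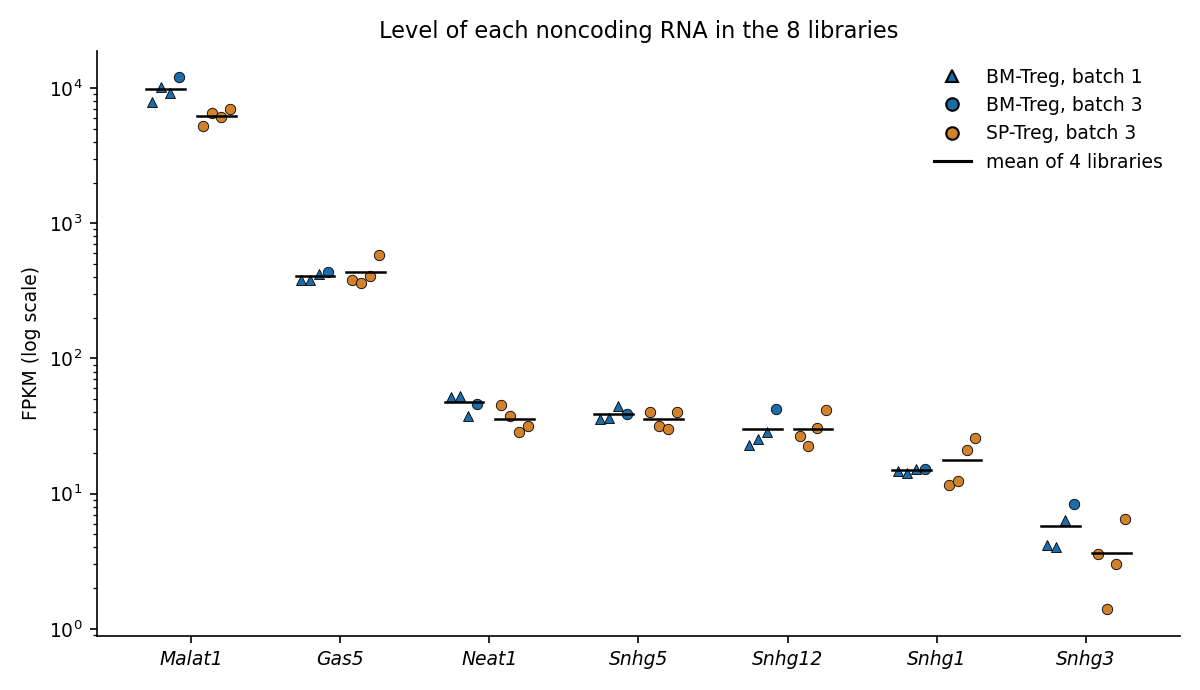
Deposited FPKM (log axis) of the 7 noncoding RNAs in each library, with BM-Treg in blue and SP-Treg in orange; triangles are batch 1, circles batch 3, and bars the mean of 4 libraries. Malat1 is the 1 gene whose BM-Treg libraries (7866 to 12020) all lie above its SP-Treg libraries (5221 to 7035).

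Per length, the order of mean levels was the same in both tissues: Malat1, Gas5, Neat1, Snhg5, Snhg12, Snhg1 and Snhg3. In BM-Treg, Malat1 at 9820 ± 1763 FPKM stood 24.2-fold over Gas5 at 406 ± 28.2 FPKM, which stood 8.58-fold over Neat1 at 47.3 ± 7.08 FPKM (SD, n = 4). In SP-Treg the means were 6233 ± 770, 433 ± 100 and 35.7 ± 7.16 FPKM (SD, n = 4), with steps of 14.4-fold and 12.1-fold. The Malat1 FPKM depend on how its reads were split between transcripts: of the BM-Treg mean, 7803 FPKM were those of a short second transcript and 1940 FPKM those of the full-length Malat1-201. The ranges of Neat1 and Snhg5, and those of Snhg5 and Snhg12, overlapped in both tissues, so that these neighbours did not differ beyond their spread. The ranges of Snhg12 and Snhg1 overlapped in SP-Treg and not in BM-Treg, while within every library of both tissues Snhg12 lay above Snhg1. Snhg3 came last, at 5.74 ± 2.08 FPKM in BM-Treg and 3.61 ± 2.10 FPKM in SP-Treg (SD, n = 4). By mean FPKM over the 8 libraries Malat1 ranked 4 and Gas5 135 among all genes listed.

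Read estimates were also given per transcript. None of the 29 member transcripts tested was called in edgeR, where 42 of 28756 transcripts (0.146%) were; 3388 transcripts had an unadjusted p below 0.05, and the smallest adjusted p among the 29 was 0.199. In edgeR 1 transcript was called without BM-Treg replicate 1 and 0 without BM-Treg replicate 2. Limma on log2(FPKM + 1) called 114 transcripts and again 0 of these. The full-length Malat1 transcript, Malat1-201, took 83.7%, 73.6%, 71.1% and 68.8% of the gene's expected counts in BM-Treg replicates 1 to 4, and 81.8%, 74.5%, 78.0% and 75.6% in SP-Treg replicates 1 to 4. BM-Treg and SP-Treg values overlapped through BM-Treg replicate 1. The difference was -3.14 percentage points (exact permutation p = 0.429) over all libraries. Without BM-Treg replicate 1 it was -6.28 (exact permutation p = 0.0571), where the other 3 BM-Treg shares lay below all SP-Treg shares. It was -1.29 (exact permutation p = 0.743) without BM-Treg replicate 4 and -1.71 (exact permutation p = 0.686) without SP-Treg replicate 1. Nearly all other counts went to a second transcript (ENSMUST00000173523), whose counts per FPKM give a length near 8.4% of that of Malat1-201. RSEM shares reads between such overlapping transcripts by a model, so that their split is less certain than the gene's sum.

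The long, paraspeckle-building Neat1 transcript, Neat1-201, took 51.7%, 39.7%, 35.2% and 40.3% of the gene's counts in BM-Treg replicates 1 to 4, and 45.1%, 41.9%, 63.4% and 45.5% in SP-Treg replicates 1 to 4. Nearly all remaining counts went to the short Neat1-202. The share of Neat1-201 averaged 41.7% for BM-Treg and 49.0% for SP-Treg, a difference of -7.26 percentage points (exact permutation p = 0.286, two-sided; adjusted p = 0.560 over 21 shares). SP-Treg replicate 3 stood apart at 63.4%, and without SP-Treg replicate 3 the difference was -2.46 percentage points (exact permutation p = 0.571). Without BM-Treg replicate 1 it was -10.6 percentage points (exact permutation p = 0.0571), so that its size rested on single libraries. Per length the short form was the more abundant: in BM-Treg, Neat1-202 was at 42.7 ± 5.78 FPKM and Neat1-201 at 4.53 ± 1.75 FPKM (SD, n = 4).

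**Figure D2:**
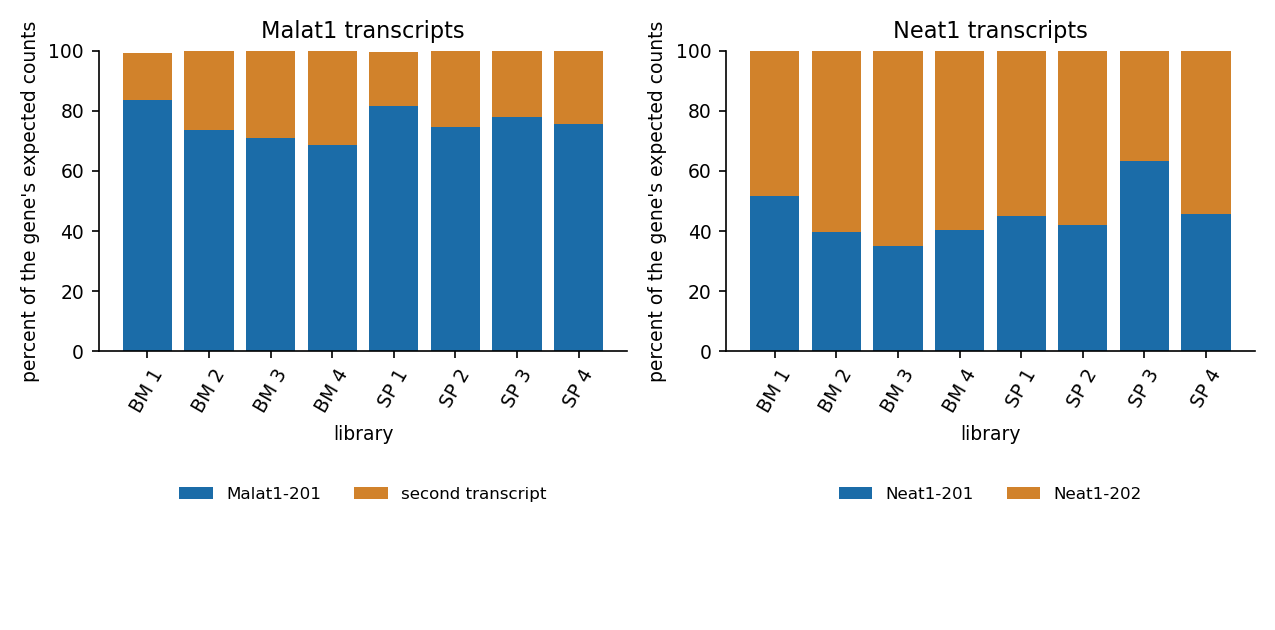
Share of each gene's expected counts (percent) that went to its 2 main transcripts in the 4 BM-Treg and 4 SP-Treg libraries, for Malat1 (Malat1-201 in blue and the second transcript in orange) and Neat1 (Neat1-201 in blue, Neat1-202 in orange). The share of Neat1-201 is highest in SP-Treg replicate 3, at 63.4%.

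None of the 5 snoRNA host genes was called, and their log2 fold changes ran from -0.33 to 0.66 with a median of -0.06, which was 0.16 with batch as a term. Gas5 (ENSMUSG00000053332, chr1:161034422-161038539, plus strand) was the most abundant of them. Its level was 380, 384, 421 and 438 FPKM in BM-Treg replicates 1 to 4, and 381, 360, 410 and 580 FPKM in SP-Treg replicates 1 to 4. The BM-Treg libraries lay within the SP-Treg range, which SP-Treg replicate 4 extended upwards. The log2 fold change was -0.06 ± 0.16 (SE; edgeR adjusted p = 0.859), and its sign turned without SP-Treg replicate 4 (0.12, edgeR adjusted p = 0.628), and for BM-Treg replicate 4 against SP-Treg, fitted with batch as a term (0.045, edgeR adjusted p = 0.953) or in batch 3 alone (0.065, edgeR adjusted p = 0.945).

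Snhg1 (ENSMUSG00000097188, chr19:8723496-8726442, plus strand) spread more in SP-Treg than in BM-Treg. Its level was 14.7, 14.3, 15.3 and 15.3 FPKM in BM-Treg replicates 1 to 4, and 11.6, 12.5, 21.2 and 26.0 FPKM in SP-Treg replicates 1 to 4. SP-Treg replicates 1 and 2 lay below and replicates 3 and 4 above all BM-Treg libraries. The coefficient of variation was 3.29% in BM-Treg and 39.1% in SP-Treg. The log2 fold change was -0.33 ± 0.26 (SE; edgeR adjusted p = 0.497), and -0.10 (edgeR adjusted p = 0.844) without SP-Treg replicate 4. Slc3a2, the heavy chain of the large amino acid transporters, lies 126 bases away on the opposite strand and was not called at a log2 fold change of 0.14 ± 0.14 (SE; edgeR adjusted p = 0.599).

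Snhg12 (ENSMUSG00000086290, chr4:132308678-132311024, plus strand) was at 23.0, 25.5, 28.7 and 42.3 FPKM in BM-Treg replicates 1 to 4, and at 26.5, 22.5, 30.8 and 41.3 FPKM in SP-Treg replicates 1 to 4. BM-Treg replicate 4 stood above the 3 BM-Treg libraries of batch 1, by 0.75 on the log2 CPM scale against their mean. The log2 fold change was -0.09 ± 0.21 (SE; edgeR adjusted p = 0.841) over all libraries. Its sign turned for BM-Treg replicate 4 against SP-Treg, fitted with batch as a term (0.44, edgeR adjusted p = 0.405) or in batch 3 alone (0.46, edgeR adjusted p = 0.479), without BM-Treg replicate 1 (0.05, edgeR adjusted p = 0.922) and without SP-Treg replicate 4 (0.08, edgeR adjusted p = 0.870).

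Snhg5 (ENSMUSG00000097195, chr9:88521056-88522883, minus strand) was at 35.8, 36.0, 44.5 and 39.1 FPKM in BM-Treg replicates 1 to 4, and at 40, 31.5, 30.3 and 40.03 FPKM in SP-Treg replicates 1 to 4, with a log2 fold change of 0.07 ± 0.12 (SE; edgeR adjusted p = 0.780). The tissues overlapped. Snhg3 (ENSMUSG00000085241, chr4:132348014-132353686, minus strand) was read at 37.1, 33.3, 61.2 and 36.9 expected counts in BM-Treg replicates 1 to 4, and at 16.5, 7.62, 16.6 and 35.6 in SP-Treg replicates 1 to 4. Its log2 fold change of 0.66 ± 0.44 (SE; edgeR adjusted p = 0.402) was the widest in error of the 7 genes, at the lowest counts. It ran from 0.41 (without SP-Treg replicate 2, edgeR adjusted p = 0.636) to 1.11 (without SP-Treg replicate 4, edgeR adjusted p = 0.170), and for BM-Treg replicate 4 against SP-Treg was 1.07 (edgeR adjusted p = 0.398) with batch as a term or 1.09 (edgeR adjusted p = 0.492) in batch 3 alone. Snhg3 shares 5592 bases with Rcc1, the chromatin-bound exchange factor for Ran, on its own strand and holds the antisense gene Gm17300, so that its reads are uncertain. Rcc1 (log2 fold change -0.18, edgeR adjusted p = 0.624) and Gm17300 (-0.13, edgeR adjusted p = 0.830) were not called.

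**Figure D3:**
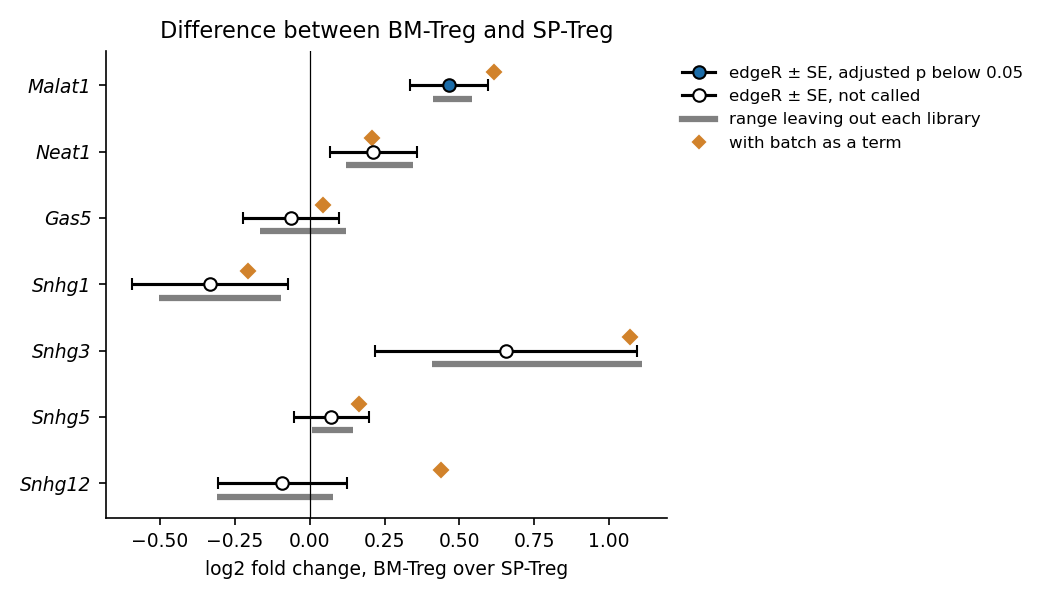
log2 fold change of BM-Treg over SP-Treg for each noncoding RNA in edgeR (circles, bars ± SE, filled where called), its range over the 8 fits that left out a library (grey) and its value with batch as a term, which compares BM-Treg replicate 4 with SP-Treg (diamonds). Malat1 stays between 0.41 and 0.54 when libraries are left out, and Gas5 and Snhg12 cross 0.

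The 5 hosts together hold 25 annotated snoRNA genes on the deposited coordinates, 9 in Gas5, 8 in Snhg1, 4 in Snhg12, 2 in Snhg3 and 2 in Snhg5, and Malat1 and Neat1 hold 0. These intron-encoded RNAs were close to absent from the libraries. Summed over the 25 genes the expected counts were 21.4, 21.8, 33.9 and 19.02 in BM-Treg replicates 1 to 4, and 23.2, 10.7, 59.0 and 25.8 in SP-Treg replicates 1 to 4, and 8 of the 25 had 0 counts in every library. The highest single value was 25.1 counts, for Snora73b inside Snhg3. No snoRNA inside a host passed the filter on low counts, so that a difference in the mature snoRNAs was not detectable at these counts.

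For Gas5, 20 of its 25 transcripts are annotated as retained-intron forms. They held 88.9%, 83.7%, 83.9% and 81.9% of the gene's expected counts in BM-Treg replicates 1 to 4, and 77.3%, 80.9%, 84.6% and 82.4% in SP-Treg replicates 1 to 4 (exact permutation p = 0.200, two-sided). RSEM splits reads between these overlapping transcripts by a model, so that the shares are uncertain and do not measure how much Gas5 RNA keeps its introns. Gas5-224, a spliced form of 12 exons, held 9.94% to 16.6% in BM-Treg and 14.1% to 21.01% in SP-Treg. Among the 21 shares tested in Malat1, Neat1, Gas5, Snhg1, Snhg3 and Snhg12, 1 had an unadjusted exact permutation p below 0.05, Gas5-221 at a mean share of 6.00% for BM-Treg and 9.49% for SP-Treg (p = 0.0286, the smallest that 4 against 4 libraries allow). None passed after adjustment, where the smallest adjusted p was 0.560. With 4 against 4 libraries a single share at the smallest p could not have passed over 21 shares, so that these tests had little power. The mean shares of the 5 Snhg12 transcripts past 5% ran from 7.00% to 32.9% for BM-Treg and from 7.32% to 38.8% for SP-Treg, so that no single transcript held most of that gene.

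SP-Treg replicate 4 held the highest CPM of the 4 SP-Treg libraries for all 5 hosts, and BM-Treg replicate 4 the highest of the 4 BM-Treg libraries for 4 of them. How many of all genes tested peak in these libraries is not given, so that these counts are no result about the hosts. BM-Treg replicate 4 is also the only male BM-Treg library and the only one of its batch. Its high values thus cannot be told apart from batch or sex. Likeness was measured as the root mean square (RMS) difference of log2 CPM, after each gene's mean over the 8 libraries was taken off. Among the pairs of the 7 genes the smallest was that of Gas5 with Snhg1, at 0.19, followed by Gas5 with Snhg12 at 0.21, Gas5 with Snhg5 at 0.22 and Malat1 with Neat1 at 0.24. The pair of Neat1 and Snhg3 was the least alike at 0.71.

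Among 8556 other genes whose log2 CPM averaged 3 or more, the 3 most like Gas5 were the ribosomal protein genes Rps7 (RMS difference 0.07), Rpl27a (0.07) and Rps26 (0.08), where the median gene stood at 0.33. Rpl27a is itself a protein-coding snoRNA host. Rps7 was read at 138, 136, 155 and 150 CPM in BM-Treg replicates 1 to 4, and at 102, 123, 145 and 207 CPM in SP-Treg replicates 1 to 4, the same high SP-Treg replicate 4 as in Gas5. None of the 3 was called. The 3 most like Malat1 were Serac1 (0.06), a lipid remodelling gene, Smg9 (0.08), a nonsense-mediated decay factor, and Atg16l1 (0.08), an autophagy gene. Since they were picked for following Malat1, their calls are not independent of its own. Serac1 (log2 fold change 0.47, edgeR adjusted p = 0.0482) and Smg9 (0.52, edgeR adjusted p = 0.0305) were called over all libraries, in 1 and 2 of the 8 fits with 1 library less (highest edgeR adjusted p 0.114 and 0.0742) and not with batch as a term (edgeR adjusted p = 0.0956 and 0.206), and Atg16l1 (0.32, edgeR adjusted p = 0.133) was not. Those most like Neat1 were Phtf2 (0.09), Zfp871 (0.10) and Mll3 (0.10), of which none was called.

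**Figure D4:**
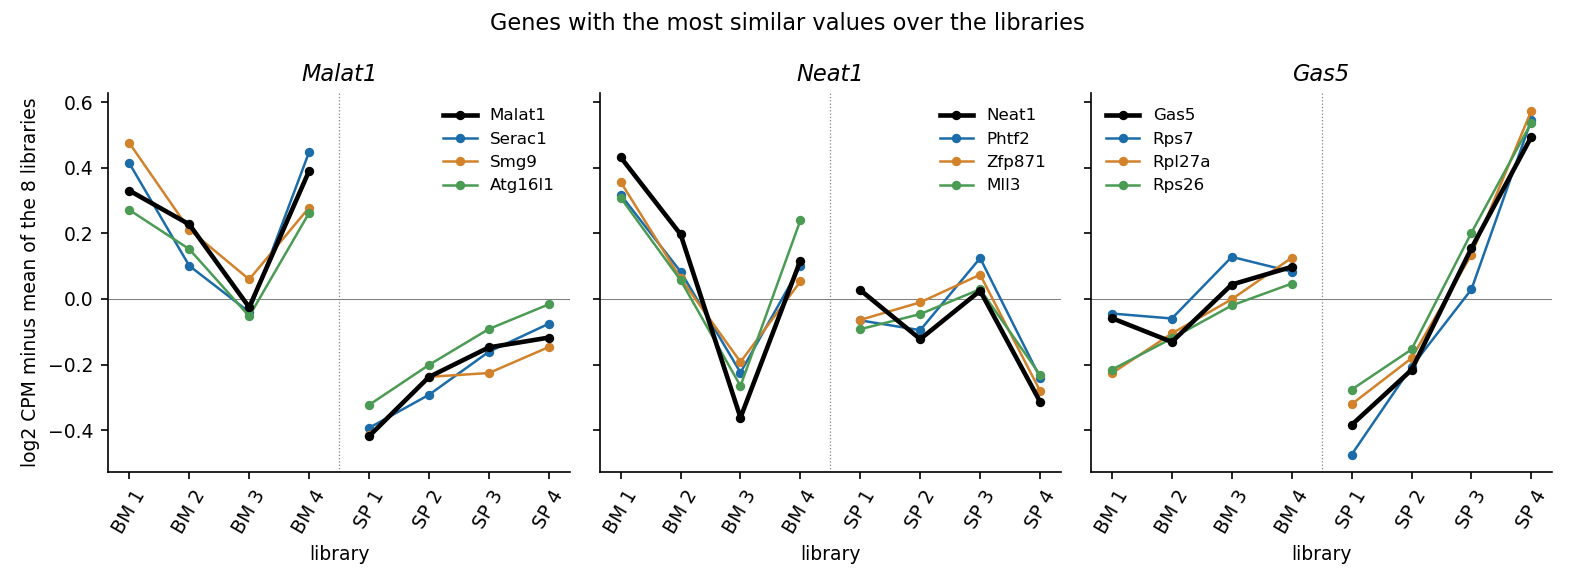
log2 CPM minus the mean over the 8 libraries (vertical axis) in each library (horizontal axis) for Malat1, Neat1 and Gas5 (black) and the 3 genes with the smallest RMS difference to each; lines only join the points of a gene within a tissue. Gas5 and Rps7, Rpl27a and Rps26 all peak in SP-Treg replicate 4 and are lowest in SP-Treg replicate 1.

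The start sites of the noncoding RNAs and of the 3 ribosomal protein genes closest to Gas5 are set side by side. Genes of the translation machinery often begin transcription within a short run of pyrimidines, the 5′ terminal oligopyrimidine tract, and several snoRNA hosts are known to do so. Start-site windows of 300 bases, from 250 before to 50 after the start, were taken from RefSeq (GRCm38.p6), and 6 of the 7 noncoding RNAs matched by symbol with 7 start sites. Neat1 had no entry. The 80 bases from 50 before to 30 after each start are printed 5′ to 3′ on the gene's strand. Capitals mark the longest unbroken run of at least 6 bases of C or T that reaches within 5 bases of the start, and the letters TATAAA or TATATA where they begin 20 to 40 bases before it.
Gas5, first start: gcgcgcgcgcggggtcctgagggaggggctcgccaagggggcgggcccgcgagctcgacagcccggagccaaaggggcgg
Gas5, second start: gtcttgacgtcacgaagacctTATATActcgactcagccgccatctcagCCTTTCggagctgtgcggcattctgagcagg
Snhg1: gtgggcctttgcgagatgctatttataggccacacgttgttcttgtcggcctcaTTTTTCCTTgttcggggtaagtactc
Snhg12: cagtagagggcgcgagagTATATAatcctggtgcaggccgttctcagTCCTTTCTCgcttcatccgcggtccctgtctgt
Snhg5: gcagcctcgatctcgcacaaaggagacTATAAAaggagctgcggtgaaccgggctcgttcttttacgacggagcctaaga
Snhg3: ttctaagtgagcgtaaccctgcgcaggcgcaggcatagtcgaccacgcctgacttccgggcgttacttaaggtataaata
Malat1: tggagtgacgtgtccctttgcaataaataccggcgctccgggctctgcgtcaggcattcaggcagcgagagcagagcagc
Rps7: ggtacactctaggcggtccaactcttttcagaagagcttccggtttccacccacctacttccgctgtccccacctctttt
Rpl27a: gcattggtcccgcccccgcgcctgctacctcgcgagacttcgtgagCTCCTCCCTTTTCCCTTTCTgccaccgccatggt
Rps26: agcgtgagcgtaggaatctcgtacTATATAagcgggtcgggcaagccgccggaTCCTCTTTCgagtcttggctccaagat
The Gas5 sequences lie on the plus strand at chr1:161034551-161034630 and chr1:161035116-161035195, with starts 565 bases apart. Snhg1 is shown at chr19:8723437-8723516 and Snhg12 at chr4:132308628-132308707 (both plus strand), Snhg5 at chr9:88522868-88522947, Snhg3 at chr4:132353657-132353736 and Malat1 at chr19:5802643-5802722 (all minus strand). Rps7 is at chr12:28635924-28636003 and Rps26 at chr10:128626477-128626556 (both minus strand), and Rpl27a at chr7:109519145-109519224 (plus strand).

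The C or T run was found at the second start of Gas5 (6 bases), at Snhg1 (9 bases) and at Snhg12 (9 bases), and not at Snhg3, Snhg5 or Malat1. Counted in bases from the annotated start, the run began at -1 in Gas5, at -3 in Snhg12 and at 4 in Snhg1. The annotated Snhg1 start thus lies outside its run. Snhg5 holds a run just beyond the reach of 5 bases, so that its lack rests on where the start is annotated. Of all 32851 start sites 21.02% had such a run, and of the 73 start sites of ribosomal protein genes 45.2%. Rpl27a had a run of 20 bases that began at -4 and Rps26 one of 9 bases that began at 3, while Rps7 had none of at least 6 bases near its annotated start. TATAAA or TATATA began 29 bases before the second Gas5 start, 32 before that of Snhg12, 23 before that of Snhg5 and 26 before that of Rps26. Of all start sites 2.74% had these letters on the gene's strand in that interval, and of those of ribosomal protein genes 5.48%. On either strand anywhere in the 300 bases the same letters were in 17.1% of start sites. TATATA reads the same on both strands. A match is a string of letters and says nothing of use in these cells.

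The gene lists that follow were chosen with earlier results of these data known, so that their shares of called genes are description only. Of the other snoRNA host lncRNAs, 8 of 15 named were tested and 1 was called (12.5%, against 8.75% of all genes). Snhg20 was at 6.14, 5.80, 4.69 and 6.61 CPM in BM-Treg replicates 1 to 4, and at 3.60, 2.87, 2.85 and 3.09 CPM in SP-Treg replicates 1 to 4. All BM-Treg libraries lay above SP-Treg, at a log2 fold change of 0.90 (edgeR adjusted p = 0.0286), and it was called in 2 of 8 fits without a library (highest edgeR adjusted p 0.0814) and not with batch as a term (1.09, edgeR adjusted p = 0.112). Zfas1, the most abundant of this list at 39.1 FPKM, had a log2 fold change of -0.30 (edgeR adjusted p = 0.499), whose sign turned with batch as a term (0.11, edgeR adjusted p = 0.898). The median of the list was -0.06. Of the other long nuclear noncoding RNAs 10 of 14 were tested and Xist alone was called (10%), with the split by sex label given above and a log2 fold change of 0.29 (edgeR adjusted p = 0.804) with batch as a term. Over all libraries its log2 fold change was 9.41 (edgeR adjusted p = 0.0391), called in 1 of 8 fits without a library (highest edgeR adjusted p 0.107). Tug1, which lay higher in every BM-Treg library, was not called (log2 fold change 0.25, edgeR adjusted p = 0.0930), and the median of the list was 0.10.

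Of the short nuclear noncoding RNAs 3 were tested and 2 were called, both upregulated, against 8.75% of all genes called. Rpph1, the RNA subunit of the tRNA-processing ribonuclease P, was at 24.9, 17.2, 17.5 and 16.9 CPM in BM-Treg replicates 1 to 4, and at 3.31, 6.23, 5.86 and 9.92 CPM in SP-Treg replicates 1 to 4. It was upregulated in BM-Treg with a log2 fold change of 1.59 (edgeR adjusted p = 0.00314) and remained called in all 8 fits without a library, but not with batch as a term (1.42, edgeR adjusted p = 0.101). Terc, the template RNA of telomerase and a box H/ACA RNA that binds the same core proteins as one snoRNA class, was at 3.67, 3.62, 3.55 and 1.51 CPM in BM-Treg replicates 1 to 4, and at 0.432, 1.04, 1.59 and 0.955 CPM in SP-Treg replicates 1 to 4. The only BM-Treg library of batch 3 lay below SP-Treg replicate 3. Its log2 fold change was 1.64 (edgeR adjusted p = 0.0286) over all libraries and 0.59 (edgeR adjusted p = 0.648) with batch as a term, and it was called in 2 of 8 fits without a library (highest edgeR adjusted p 0.0893). The remaining RNA of the list, Rn7sk, the 7SK RNA that holds the elongation factor P-TEFb inactive, is named after its values were seen and was not called (0.21, edgeR adjusted p = 0.719).

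Among proteins that package snoRNAs, those called were all lower in BM-Treg. Of 18 snoRNP proteins and assembly factors, all tested, 5 were called and all 5 were downregulated (27.8%, against 5.02% of all genes in this direction), and 16 had a log2 fold change below 0. As the list was chosen with earlier results of these data known, this share is no test of the list. The median was -0.35, against -0.01 over all genes tested. Dkc1, the pseudouridine synthase of H/ACA particles, was at 45.5, 47.2, 44.8 and 41.6 CPM in BM-Treg replicates 1 to 4, and at 67.5, 66.8, 73.9 and 80.04 CPM in SP-Treg replicates 1 to 4. Every BM-Treg library lay below every SP-Treg library, at a log2 fold change of -0.69 (edgeR adjusted p = 0.00141), and with batch as a term, where BM-Treg replicate 4 is the only BM-Treg library compared, Dkc1 was also called (-0.79, edgeR adjusted p = 0.0359). Gar1, its partner in the same particles, was at 10.1, 13.5, 15.9 and 15.7 CPM in BM-Treg and at 30.2, 25.5, 20.6 and 38.9 CPM in SP-Treg replicates 1 to 4, with a log2 fold change of -1.06 (edgeR adjusted p = 0.00460). Fbl, the methyltransferase of C/D snoRNA particles (-0.62, edgeR adjusted p = 0.0272), and Nolc1, a nucleolar chaperone of snoRNPs (-0.47, edgeR adjusted p = 0.0182), were downregulated as well. The calls of Dkc1 and Gar1 stood in all 8 fits without a library, that of Nolc1 in 5 (lost without BM-Treg replicates 1, 2 or 3, highest edgeR adjusted p 0.0735) and that of Fbl in 3 (highest edgeR adjusted p 0.0878). With batch as a term 1 of the 18 was called, and the median was -0.36, against -0.02 over all genes tested. Without BM-Treg replicate 1 or BM-Treg replicate 2 the count was 2, and without BM-Treg replicate 3 or SP-Treg replicate 4 it was 3.

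The protein-coding snoRNA hosts that were called were also lower in BM-Treg. Of 33 genes, all tested, 5 were called and downregulated (15.2%, against 5.02% of all genes in this direction), 28 had a log2 fold change below 0, and the median was -0.25. This list too was chosen with earlier results known, so that its share is no test. Hspa8, a cytosolic chaperone, was at 1193, 1520, 1539 and 1835 CPM in BM-Treg and at 3158, 3047, 2260 and 2502 CPM in SP-Treg replicates 1 to 4 (log2 fold change -0.85, edgeR adjusted p = 0.00271). Ncl, the nucleolar protein nucleolin (-0.48, edgeR adjusted p = 0.00674), and Rpl3, a ribosomal protein (-0.47, edgeR adjusted p = 0.0244), were also lower, and Dkc1 belongs to this list too. Hspa8 and Ncl remained called in all 8 fits without a library and Rpl3 in 5 (lost without BM-Treg replicate 1, BM-Treg replicate 2 or SP-Treg replicate 4, highest edgeR adjusted p 0.0883). The calls of Hspa8, Ncl and Rpl3 were lost with batch as a term, where the list median was -0.05, against -0.02 over all genes tested. Without that term the list median was -0.25. Without BM-Treg replicate 1 or 2 the number of genes called in this list was 3. The noncoding hosts, whose median was -0.06, were not tested against the coding hosts.

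Partners of Malat1 and Neat1 in nuclear bodies were mostly not called. Of 17 paraspeckle proteins 2 were called (11.8%, against 8.75% of all genes), both downregulated: Hnrnpa1 (log2 fold change -0.62, edgeR adjusted p = 0.00966) and Tardbp (-0.49, edgeR adjusted p = 0.0279), RNA-binding proteins that act in splicing. Hnrnpa1 remained called in all 8 fits without a library and Tardbp in 3 (highest edgeR adjusted p 0.0907). Neither Hnrnpa1 (-0.54, edgeR adjusted p = 0.226) nor Tardbp (-0.33, edgeR adjusted p = 0.425) was called with batch as a term. The median of the list was -0.11. Of 24 nuclear speckle proteins 1 was called (4.17%), the splicing regulator Tra2a (-0.39, edgeR adjusted p = 0.0374, called in 2 of 8 fits without a library, highest adjusted p 0.121, and with batch as a term -0.18, edgeR adjusted p = 0.587), and the median was -0.09. Srsf5, an SR splicing factor at 401 FPKM and the most abundant of them, was higher in all 4 BM-Treg libraries and was not called (0.59, edgeR adjusted p = 0.0951). Clk1, the kinase of SR proteins, was not called either (0.04, edgeR adjusted p = 0.879, and -0.09, edgeR adjusted p = 0.836, with batch as a term). On the FPKM scale the median of the speckle proteins lay above 0. The median of all genes tested also lay above 0 there, at 0.05 on log2(FPKM + 1), so that this sign is no result about the list.

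Of 16 nonsense-mediated decay factors, the pathway that degrades spliced host RNAs, 1 was called (6.25%, against 8.75% of all genes). Smg9 was at 26.8, 22.3, 20.03 and 23.3 CPM in BM-Treg and at 14.4, 16.3, 16.4 and 17.3 CPM in SP-Treg replicates 1 to 4 (log2 fold change 0.52, edgeR adjusted p = 0.0305; called in 2 of 8 fits without a library, highest adjusted p 0.0742, and not with batch as a term, 0.53, edgeR adjusted p = 0.206). Pnrc2 (-0.18, edgeR adjusted p = 0.328) and Eif4a3 (0.12, edgeR adjusted p = 0.629), the most abundant of the list, were not called. The median was -0.03, with the sign turned on the FPKM scale and, at 0.05, with batch as a term. Over all genes tested the median was 0.05 on log2(FPKM + 1) and -0.02 with batch as a term. Immediate early genes, which respond within minutes to stimulation or to cell handling, moved in both directions. Of 8 tested 4 were called (50%, against 8.75% of all genes): Fosb (2.54, edgeR adjusted p = 0.0452), Dusp1 (1.38, edgeR adjusted p = 0.0236) and Junb (1.31, edgeR adjusted p = 0.0216) were upregulated and Egr1 (-1.02, edgeR adjusted p = 0.00343) was downregulated in BM-Treg. Of the fits without a library, Fosb was called in 2 (highest edgeR adjusted p 0.102), Dusp1 in 4 (0.0656), Junb in 6 (not without BM-Treg replicate 4 or SP-Treg replicate 3, 0.0551) and Egr1 in all 8. With batch as a term 0 of the 8 were called. Their part in the difference of Malat1 was not tested.

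**Figure D5:**
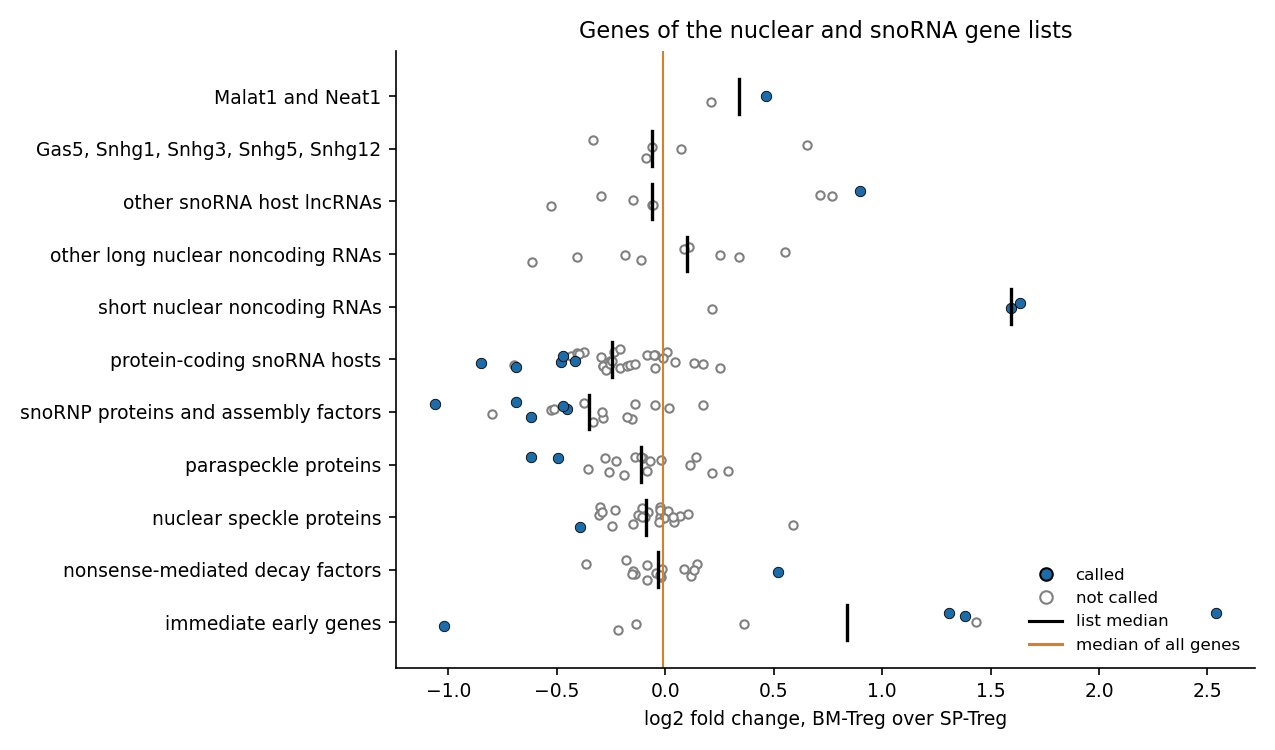
log2 fold change of BM-Treg over SP-Treg (horizontal axis) for each tested gene of the lists, filled where called; black bars are list medians and the orange line the median of all genes (-0.01). Xist (9.41) is off the scale and is left out of the plot but not of its list's median; marker lists are not drawn. The snoRNP median is -0.35.

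Markers were checked for the sorted cells and for cells that a sort could carry along. The 8 Treg markers summed to 7596, 8227, 8849 and 9030 CPM in BM-Treg replicates 1 to 4, and to 8595, 8337, 9124 and 8670 CPM in SP-Treg replicates 1 to 4, and 0 of the 8 were called. Foxp3 was at 1500 to 2083 CPM in BM-Treg and 1274 to 1724 CPM in SP-Treg. Il2ra had the largest fold change of the 8 (log2 fold change -0.62, edgeR adjusted p = 0.0803), at 737 to 940 CPM in BM-Treg and 849 to 1676 CPM in SP-Treg. Erythroid genes, led by the globin Hbb-bs, summed to 15.4, 34.0, 21.2 and 20.99 CPM in BM-Treg and to 2.52, 191, 463 and 297 CPM in SP-Treg replicates 1 to 4. SP-Treg replicate 1 was thus the lowest and the other 3 SP-Treg libraries the highest (exact permutation p = 0.200, two-sided; adjusted p = 0.8 over 8 lists). B cell genes, led over all libraries by Cd79b, were highest in SP-Treg replicate 2, at 107 CPM, against 8.13 to 23.5 CPM in the other SP-Treg and 11.8 to 15.6 CPM in the BM-Treg libraries (exact permutation p = 0.343). Of 5 B cell genes tested Ebf1 was called, downregulated at a log2 fold change of -2.42 (edgeR adjusted p = 0.0332, called in 3 of 8 fits without a library, highest adjusted p 0.09998, and not with batch as a term, -2.57, edgeR adjusted p = 0.312). CD8 T cell genes, over all libraries mostly Cd8b1, summed to 10.9 to 12.6 CPM in BM-Treg and to 13.2 to 41.1 CPM in SP-Treg (exact permutation p = 0.0286, two-sided; adjusted p = 0.229), and Cd8a was called (log2 fold change -2.99, edgeR adjusted p = 0.0293, called in 4 of 8 fits without a library, highest adjusted p 0.102, and not with batch as a term, -3.39, edgeR adjusted p = 0.270).

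Neutrophil genes, led over all libraries by Ngp and in BM-Treg replicate 4 by Mpo (3.26 CPM), summed to 1.32 to 10.04 CPM in BM-Treg and 0.216 to 17.6 CPM in SP-Treg, and monocyte genes, mostly Lyz2, to 11.1 to 15.0 and 4.17 to 21.6 CPM. Plasmacytoid dendritic cell genes, led over all libraries by Ccr9, summed to 65.2 to 66.8 and 37.0 to 80.1 CPM. The plasma cell list stood at 2187 to 2981 and 2516 to 3396 CPM, and Ighm made up 97.5% of it, whereas Jchain lay at 0 to 0.395 CPM in BM-Treg and 0.216 to 24.7 CPM in SP-Treg. None of these 4 sums separated the tissues, at exact permutation p of 0.771 (neutrophil), 0.971 (monocyte), 1 (plasmacytoid dendritic cell) and 0.514 (plasma cell). The plasma cell sum is in effect that of Ighm. As a mean of log2(CPM + 1) over the list, which weighs its genes alike, the plasma cell difference was -0.78 (exact permutation p = 0.0571), and Sdc1 was at 0 to 0.0928 CPM in BM-Treg and at 0.360 to 0.588 CPM in SP-Treg. No marker had 0 counts in every library. The part of such cells in the Malat1 difference was not tested.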

How the data were processed

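RNA from more than 100000 sorted cells per library (15 ng, RIN above 7) was amplified and sequenced as single reads of 80 nt. Per the submitters' processing notes, reads were handled with cutadapt 1.9, STAR 2.5.2a and RSEM 1.2.30 on GRCm38. The authors deposited RSEM expected counts, estimates that need not be whole, per gene and per transcript, and FPKM, which the authors scaled to transcript length and depth. Identifiers, 95.3% of which are in GENCODE M21, gave names and transcript types. Expected counts were rounded and tested in edgeR 4.0.16 (R 4.3.3; filterByExpr, TMM, robust quasi-likelihood fit, Benjamini-Hochberg over all genes or transcripts, threshold 0.05). SE is the absolute log2 fold change over the square root of F. DESeq2 1.42.0 and limma 3.58.1 served as alternatives, with log2(FPKM + 1) and log2(FPKM + 0.1), and tests were checked on simulated counts. Transcript shares and marker sums, as log2(CPM + 0.5), were compared with exact permutation tests. Plot and sequence steps used Python 3.11.15. Members and lists were chosen with earlier results of these data known. Named genes are the members, their transcripts with a share of at least 5%, overlapping and neighbouring genes, up to 4 called genes per list (the 2 most abundant where fewer than 2 were called), and the 3 genes most like Malat1, Neat1 and Gas5. Depth was 12427136 to 21921252 expected counts per library, at which Snhg3 and the nested snoRNAs had few counts. Libraries are called biological replicates by the study. No pair of libraries within a tissue agreed within sampling noise.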

Additional observations from a re-analysis of the deposited data

Results flagged for a closer look

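In 126 groups of 4 libraries 10 had a library far from the other 3. The cutoff is Dixon's 95% critical value, set to flag about 1 in 20 independent groups by chance, and these groups overlap, so that their number was not tested against chance. In SP-Treg replicate 3 the share of Neat1-201 was highest (63.4%) and that of Neat1-202 lowest (36.6%), 2 views of the same split. Snhg3-203 stood out in BM-Treg replicate 3 (23.7%) and in SP-Treg replicate 1 (34.3%), with no counts in the other libraries, and Snhg12-203 in SP-Treg replicate 1 (31.8%). The summed B cell genes were highest in SP-Treg replicate 2 (107 CPM). The summed plasmacytoid dendritic cell genes were lowest in BM-Treg replicate 2 (65.2 CPM), in a group that spanned 65.2 to 66.8 CPM. Rpph1 was highest in BM-Treg replicate 1 (24.9 CPM), Terc lowest in BM-Treg replicate 4 (1.51 CPM) and Rpl3 highest in SP-Treg replicate 4 (580 CPM). Their causes were not tested.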

How the results depend on the processing

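Over the 20 alternatives Malat1, Neat1, Snhg1 and Snhg5 kept the sign of their log2 fold change, and so did Snhg3 over 19, since it had no value where every library needed 10 counts. Adding the antisense gene inside Malat1 was chosen after the data were seen and changed no call. Batch 1 holds no SP-Treg library, so that batch as a term and batch 3 alone both compare BM-Treg replicate 4, an arm of 1 library assumed to vary like the others, with SP-Treg. With batch as a term the log2 fold change was 0.62 for Malat1 (no longer called), 0.045 for Gas5 and 0.44 for Snhg12 (both signs turned). In batch 3 alone it was 0.64 for Malat1 (not called), 0.065 for Gas5 and 0.46 for Snhg12. In each case the cause was not tested. For Snhg3 it was 1.07 with batch as a term and 1.09 in batch 3 alone. For Neat1 it was 0.21 in edgeR, 0.40 with limma on log2(FPKM + 1) and 0.41 on log2(FPKM + 0.1). Leaving out 1 library gave 0.41 to 0.54 for Malat1, 0.12 to 0.34 for Neat1, -0.16 to 0.12 for Gas5, -0.50 to -0.10 for Snhg1, 0.41 to 1.11 for Snhg3, 0.0093 to 0.14 for Snhg5 and -0.31 to 0.079 for Snhg12.

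The number of genes called was 1172, with 42.6% upregulated. It was 765 with limma on log2(FPKM + 1) (63.0% upregulated), 728 on log2(FPKM + 0.1) (62.4% upregulated), 258 with batch as a term, 79 in batch 3 alone and 690 to 1048 without 1 library. The number of transcripts called was 42. It was 114 with limma on log2(FPKM + 1), 434 where every library had 10 counts, 125 with batch as a term, 4 in batch 3 alone and 0 to 43 without 1 library.

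With batch as a term, where the BM-Treg arm falls from 4 libraries to 1, the calls fell from 1 to 0 among Malat1 and Neat1, other snoRNA hosts, nuclear speckle proteins and decay factors, from 2 to 0 among short nuclear RNAs and paraspeckle proteins, from 5 to 1 among protein-coding hosts and snoRNP proteins, and from 4 to 0 among immediate early genes. Dkc1 belongs to both the protein-coding hosts and the snoRNP proteins and is counted in each. Without 1 library the calls ran from 0 to 1 for Malat1 and Neat1, other snoRNA hosts, speckle proteins and decay factors, 0 to 3 for other long nuclear RNAs, 1 to 2 for short nuclear RNAs and paraspeckle proteins, 3 to 6 for protein-coding hosts, 2 to 5 for snoRNP proteins and 1 to 4 for immediate early genes.

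With the replicate number as a replicate block, 948 genes and 1 transcript were called, and the log2 fold change of Malat1 was 0.46 (edgeR adjusted p = 0.0865). The labels give no pairing beyond the number. Deviations of same-numbered libraries from their group means correlated at -0.11, 0.06, -0.18 and 0.04, so that the numbers were not taken to pair them. Snhg3 and the nested snoRNAs had few counts at this depth, and the cause was not tested.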
